A study of Mus musculus with 8 samples.

Results

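Gata1, Bmyc, Tgif1 and Hmgn3 are the transcription and chromatin regulators with the largest decreases among the genes called lower in regulatory T (Treg) cells with both copies of Bcl11b floxed (deficient cells), and Myc and Hmgn1 are the paralogs set beside Bmyc and Hmgn3. The 6 genes were taken by symbol from a table of 23997 genes, and all 6 had a mean of at least 1 FPKM (fragments per kilobase of transcript, scaled to library size), the level above which 10614 genes were tested. Treg cells are suppressive CD4 T cells that express the factor Foxp3. Per the labels, CD4+YFP+ cells of C57BL/6 mice were sorted from draining lymph nodes and spleen. Deficient cells had the genotype Bcl11b f/f Foxp3-YFP-Cre/+ and sufficient cells the genotype Bcl11b f/+ Foxp3-YFP-Cre/+, with 4 libraries each. Both groups therefore carried the Cre on a single Foxp3 allele, which drives it in Foxp3-expressing cells, and the sufficient cells also carried 1 floxed copy of Bcl11b. The labels used here give no age of the animals and do not say whether libraries came from separate animals.

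Gata1 is a zinc finger factor that binds GATA motifs and is best known as a master regulator of erythroid cells, megakaryocytes, mast cells and eosinophils. Bmyc is a rodent relative of Myc that resembles the amino-terminal part of the MYC protein and lacks the basic helix-loop-helix leucine zipper with which MYC pairs with MAX to bind E-boxes. Tgif1 is a homeodomain repressor of the TALE class that acts against SMAD-dependent TGF-beta responses and retinoid receptors. Hmgn1 and Hmgn3 encode small nucleosome-binding proteins that keep chromatin open, and Myc drives growth and ribosome production in activated T cells.

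Promoter windows are shown for the genes with an entry in the RefSeq promoter table (4 of 6), because 3 of them were low in the same libraries and the other is the paralog that was not called. The lines give the 250 bases before an annotated start site, 5′ to 3′ on the coding strand, in build GRCm38.p6, and capitals mark a motif match. Tgif1 has 5 annotated start sites, and the window of its outermost start is printed.
Gata1, chrX:7967911-7968160, minus strand: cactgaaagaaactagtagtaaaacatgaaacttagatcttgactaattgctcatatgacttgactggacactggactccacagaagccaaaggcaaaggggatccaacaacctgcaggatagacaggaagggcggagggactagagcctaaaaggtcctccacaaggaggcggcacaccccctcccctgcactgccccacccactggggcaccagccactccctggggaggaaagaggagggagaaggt
Bmyc, chr2:25706629-25706878, plus strand: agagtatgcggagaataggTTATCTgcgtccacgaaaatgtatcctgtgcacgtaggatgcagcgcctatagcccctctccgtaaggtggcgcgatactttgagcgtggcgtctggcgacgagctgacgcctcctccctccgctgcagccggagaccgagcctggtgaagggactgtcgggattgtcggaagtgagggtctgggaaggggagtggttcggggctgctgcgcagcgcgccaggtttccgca
Tgif1, chr17:70853533-70853782, minus strand: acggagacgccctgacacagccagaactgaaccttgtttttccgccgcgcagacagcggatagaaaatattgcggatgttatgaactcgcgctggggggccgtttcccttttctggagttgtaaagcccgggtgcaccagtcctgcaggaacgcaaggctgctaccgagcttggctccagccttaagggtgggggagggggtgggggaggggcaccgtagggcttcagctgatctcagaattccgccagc
Hmgn1, chr16:96127726-96127975, minus strand: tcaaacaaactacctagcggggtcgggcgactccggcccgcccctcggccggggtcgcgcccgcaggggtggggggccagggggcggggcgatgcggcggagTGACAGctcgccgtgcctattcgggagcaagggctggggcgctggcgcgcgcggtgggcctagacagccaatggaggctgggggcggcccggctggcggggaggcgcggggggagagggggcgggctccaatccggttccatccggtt
Searched on both strands, the E-box CACGTG matched 0 of the 8 windows of these genes, against 6.03% of 32544 windows of the same length. The TGIF motif TGACAG matched the window of Hmgn1, 148 bases before the start, and was present in 15.8% of all windows. The GATA motif (the letters GATA with A or T before them and A or G after them) matched the window of Bmyc, where it reads TTATCT on the printed strand and begins 231 bases before the start, and 1 of the other 4 windows of Tgif1, and was present in 26.5% of all windows. The Gata1 window held 2 CpG dinucleotides, the Bmyc window 23 and the Hmgn1 window 30, against a median of 6 over all windows. The 5 Tgif1 windows held between 2 and 18. The printed windows of Gata1 and Tgif1 held no match to any of the 3 motifs, which says only that these letters are not there, and a match in a window is not a binding site.

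The 8 libraries were counted as 5, which sets the number of replicates for all values below, because 3 pairs of them may each be 1 library measured again. Within those pairs the columns differed by only 1.16 to 1.23 times the sampling noise of their reads: replicates 1 with 3 and 2 with 4 among deficient, and 1 with 3 among sufficient samples. The 9 other pairs of the same group stood at 1.71 to 2.47 times. Each near-identical pair was averaged, which left 2 deficient and 3 sufficient libraries, and since separate animals are not stated, p-values reflect library-to-library spread that may be technical only. Estimated depth ran from 2840000 to 12450000 fragments per library. Bcl11b read 24.2, 19.3, 24.6 and 18.7 FPKM over deficient replicates 1 to 4, against 42.4, 46.5, 42.4 and 39.1 FPKM over the sufficient ones, so every deficient library was below every sufficient one and the deficient mean was 50.8% of the sufficient mean. These are values of the whole gene, and the floxed part was not measured on its own. The T cell markers Cd3d, Cd3e, Cd3g, Cd4, Cd2, Cd5, Lck and Lat summed to 2767 to 2938 FPKM in deficient and 3088 to 3651 FPKM in sufficient libraries, with 0 of 8 called. The Treg markers Foxp3, Il2ra, Ctla4, Ikzf2 and Tnfrsf18 summed to 613 to 624 FPKM in deficient and 981 to 1204 FPKM in sufficient libraries, and all 5 had negative log2 fold changes, from -1.72 to -0.28 with a median of -0.55. Of these only Ctla4, an inhibitory receptor, was called lower (limma adjusted p = 0.0174), and it did not pass without sufficient replicate 2 (0.056). Foxp3, the least changed, was 153 ± 0.517 (SD, n = 2) and 187 ± 18.8 FPKM (SD, n = 3). Markers of macrophages and monocytes were far higher in the deficient libraries, with a sum over the 15 genes in the table of 363 to 717 FPKM against 24.9 to 91.6 FPKM. Of the 14 tested, 8 were called higher, against 1.93% of all tested genes. Dendritic cell markers summed to 10.7 to 14.3 FPKM against 0.384 to 2.83 FPKM, with 2 of 3 tested called higher. Of the B and plasma cell, neutrophil and CD8 T cell markers 0 were called. The NK cell markers Klrd1, Ncr1, Klrb1c, Tyrobp, Fcer1g, Gzma and Eomes summed to 327 to 378 FPKM against 4.87 to 23.3 FPKM. Of the 6 tested, 4 were called higher, and log2 fold changes ran from 0.04 to 5.77. Ncr1 was below the filter, so the sum does not speak for every marker of the list. Whether the macrophage, monocyte, dendritic cell and NK marker RNA came from other cells or from the sorted Treg cells cannot be told from bulk RNA. The part of this RNA, and of the lower Treg marker levels, in the results below was not tested. Nor can fewer cells of a type and less RNA per cell be told apart in bulk RNA.

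Across all tested genes, 74 of 10614 were called lower in deficient libraries by limma (Benjamini-Hochberg adjusted p under 0.05), a background of 0.697%, and 205 (1.93%) were called higher. Gata1, Bmyc, Tgif1 and Hmgn3 are 4 of those 74 because they were chosen by the size of their called decreases in this same comparison, so their values are given as a description with no test. In 5 of the 6 genes every deficient library lay below every sufficient one, which held for 10.6% of all tested genes. Fold changes below subtract sufficient from deficient values of log2(FPKM + 1), a scale that makes changes of low genes look smaller than they are.

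Gata1 (ENSMUSG00000031162.14, chromosome X, 7959260 to 7978071, minus strand, GRCm38) was low in both groups and lowest in the deficient cells. It read 1.49, 2.94, 2.91 and 3.50 FPKM over deficient replicates 1 to 4, against 10.3, 7.50, 9.05 and 10.3 FPKM over the sufficient ones. All 4 deficient libraries lay below the lowest sufficient one, which was replicate 2. Means came to 2.71 ± 0.72 (SD, n = 2) in deficient and 9.17 ± 1.48 FPKM (SD, n = 3) in sufficient libraries, or 29.5% of the sufficient level in deficient cells, and the log2 fold change was -1.46 (SE 0.19). These levels rest on approximately 8 to 59 fragments per deficient and 51 to 225 fragments per sufficient library, so the value of deficient replicate 1, with the fewest fragments, is the least precise.

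Bmyc (ENSMUSG00000049086.8, chromosome 2, 25706739 to 25707721, plus strand) was higher than Gata1 in every library and kept a similar share of its sufficient level. It read 13.1, 7.42, 16.7 and 8.08 FPKM over deficient replicates 1 to 4, against 34.6, 36.0, 34.2 and 31.1 FPKM over the sufficient ones. The sufficient libraries were tightly grouped, at 33.8 ± 2.49 FPKM (SD, n = 3), while the deficient libraries, at 11.3 ± 5.05 FPKM (SD, n = 2), split by pair, with replicates 1 and 3 at 1.92 times the level of replicates 2 and 4. The deficient mean was 33.5% of the sufficient mean, a log2 fold change of -1.56 (SE 0.23). Without deficient replicates 1 and 3 the log2 fold change was -1.99, and without replicates 2 and 4 it was -1.13. An annotated antisense gene, A230005M16Rik, shares 60.9% of the 50-base words of the Bmyc transcript on the opposite strand. The libraries were stranded per the labels' protocols, but the sources used here do not give whether counting used strand. Whether antisense reads are part of the Bmyc values is therefore not known.

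Tgif1 (ENSMUSG00000047407.17, chromosome 17, 70844205 to 70853546, minus strand) had the highest sufficient mean of the 6, within the spread of Myc. It read 31.7, 22.6, 32.4 and 21.0 FPKM over deficient replicates 1 to 4, against 64.2, 107, 67.1 and 62.5 FPKM over the sufficient ones. The sufficient group was spread by replicate 2, which stood at 1.71 times the lowest of the 3 libraries, and even the lowest sufficient library was 1.95 times the highest deficient one. Means came to 26.9 ± 7.29 (SD, n = 2) in deficient and 78.3 ± 24.7 FPKM (SD, n = 3) in sufficient libraries, so 34.4% remained, with a log2 fold change of -1.49 (SE 0.26). Without sufficient replicate 2 the log2 fold change was -1.25.

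Hmgn3 (ENSMUSG00000066456.14, chromosome 9, 83109948 to 83146685, minus strand) had the lowest mean of the 6 in both groups. It read 2.63, 1.19, 1.25 and 1.11 FPKM over deficient replicates 1 to 4, against 5.17, 5.74, 4.38 and 5.20 FPKM over the sufficient ones. The value of deficient replicate 1 was above that of replicate 3, with which it was averaged, and rests on approximately 11 fragments, against approximately 20 in replicate 3. Means came to 1.54 ± 0.562 (SD, n = 2) in deficient and 5.24 ± 0.485 FPKM (SD, n = 3) in sufficient libraries, or 29.5% of the sufficient level, and the log2 fold change was -1.31 (SE 0.19). Over the deficient libraries the estimate is 6 to 20 fragments, the lowest count behind any of the 6 genes.

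**Figure D1:**
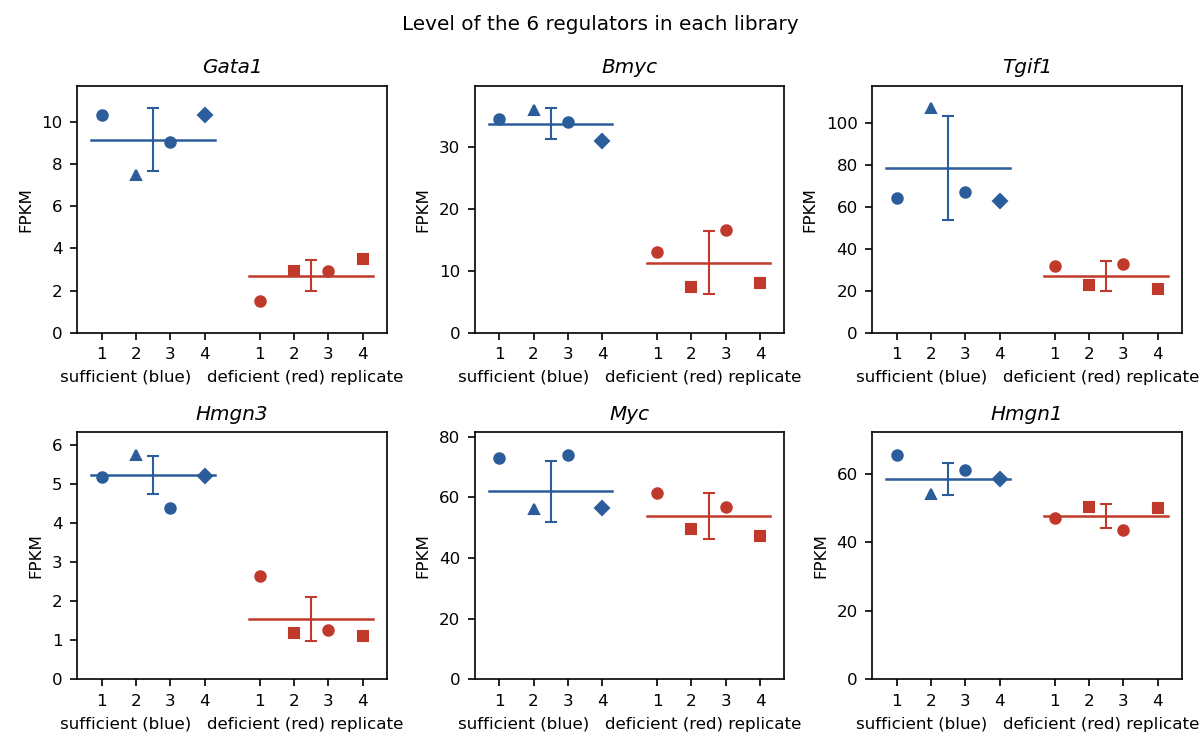
FPKM of each gene in the 8 libraries (points; blue, sufficient; red, deficient; libraries averaged as 1 share a marker), with the group mean and SD over 3 sufficient and 2 deficient libraries (lines and bars). For Gata1, Bmyc, Tgif1 and Hmgn3 the red points lie well below the blue ones, while for Myc they overlap and for Hmgn1 they lie just below.

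The paralogs moved little. Myc (ENSMUSG00000022346.15, chromosome 15, 61985391 to 61990374, plus strand) read 61.5, 49.7, 57.0 and 47.2 FPKM over deficient replicates 1 to 4, against 73.0, 56.1, 74.1 and 56.4 FPKM over the sufficient ones. The groups overlapped, since deficient replicates 1 and 3 exceeded sufficient replicates 2 and 4. Means came to 53.9 ± 7.60 (SD, n = 2) in deficient and 62.01 ± 9.99 FPKM (SD, n = 3) in sufficient libraries, and the log2 fold change of -0.20 (SE 0.16) did not pass (limma adjusted p = 0.565).

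Hmgn1 (ENSMUSG00000040681.16, chromosome 16, 96120618 to 96127729, minus strand) read 47.1, 50.3, 43.5 and 49.9 FPKM over deficient replicates 1 to 4, against 65.5, 54.0, 61.1 and 58.4 FPKM over the sufficient ones. The groups did not overlap, but the gap was narrow, with the lowest sufficient library at 1.08 times the highest deficient one. Means came to 47.7 ± 3.40 (SD, n = 2) in deficient and 58.6 ± 4.65 FPKM (SD, n = 3) in sufficient libraries, and the log2 fold change of -0.29 (SE 0.11) did not pass (limma adjusted p = 0.246). The T cell marker list had a median log2 fold change of -0.23 in the same fit, with 0 of 8 members called. Making library totals equal moved the median of all genes from -0.01 to 0.18, and under it Myc was at 0.014 and Hmgn1 at -0.08.

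The ratio within a library compares a gene with its paralog without reference to other genes. Bmyc stood at 21.4%, 14.9%, 29.2% and 17.1% of the Myc level in deficient replicates 1 to 4 and at 47.3%, 64.2%, 46.1% and 55.1% in sufficient replicates 1 to 4. Averaged over the libraries counted as separate this was 20.6% ± 6.48 (SD, n = 2) against 55.3% ± 8.72 (SD, n = 3), with no overlap. Hmgn3 stood at 5.60%, 2.36%, 2.88% and 2.22% of the Hmgn1 level in deficient and at 7.89%, 10.6%, 7.17% and 8.90% in sufficient replicates 1 to 4. The averages were 3.29% ± 1.41 (SD, n = 2) and 9.03% ± 1.55 (SD, n = 3). The log2 fold change of Bmyc was more negative than that of Myc by 1.36, and that of Hmgn3 more negative than that of Hmgn1 by 1.02, differences that the choice of members fixed in part. No 50-base word of the annotated transcripts was shared between any 2 of the 6 genes, so reads of that length from Bmyc and Myc, or from Hmgn3 and Hmgn1, map apart. Hmgn1 shared 4.3% of its words with 5 other genes, most with Gm7862. Hmgn3 shared 9.8% of its words, 206 of 2098, with Gm29054, an annotated transcript on the opposite strand. Whether counting kept the reads of this pair apart by strand is not known.

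**Figure D2:**
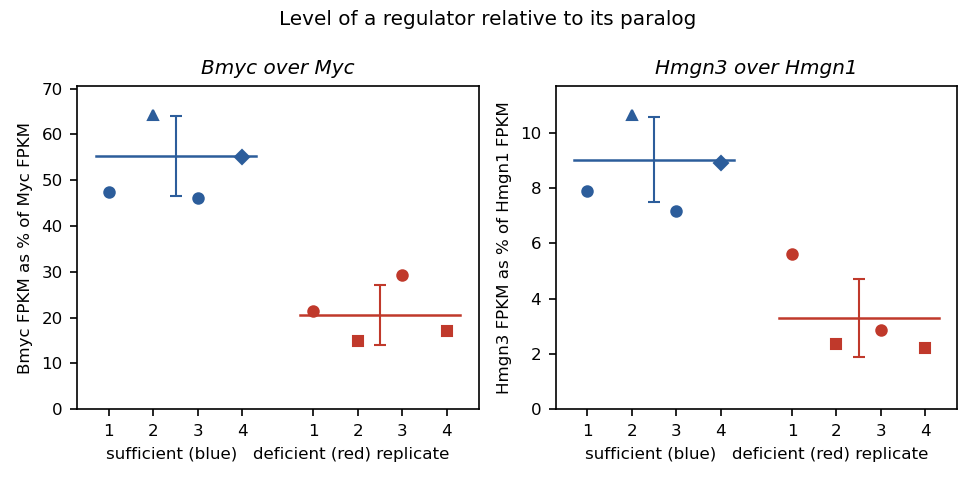
Bmyc as a percent of Myc (left) and Hmgn3 as a percent of Hmgn1 (right), both from FPKM, in each library (points) with mean and SD over 3 sufficient and 2 deficient libraries. The Bmyc share lies at 14.9% to 29.2% in deficient and 46.1% to 64.2% in sufficient libraries, and the Hmgn3 share at 2.22% to 5.60% and 7.17% to 10.6%.

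The order of levels changed with the group. In sufficient cells Tgif1 (78.3 FPKM), Myc (62.01 FPKM) and Hmgn1 (58.6 FPKM) led and did not differ beyond their spread, followed by Bmyc (33.8 FPKM), Gata1 (9.17 FPKM) and Hmgn3 (5.24 FPKM). In deficient cells Myc (53.9 FPKM) and Hmgn1 (47.7 FPKM) led and lay within their spread of each other, Tgif1 (26.9 FPKM) came after them, and Bmyc, Gata1 and Hmgn3 kept their places. The 2 deficient libraries did not rank the genes alike: the ratio of replicates 1 and 3 over replicates 2 and 4 was 1.92 for Bmyc, 1.69 for Hmgn3, 1.47 for Tgif1, 1.22 for Myc, 0.904 for Hmgn1 and 0.684 for Gata1. Gata1 was thus the only one of the 4 decreased genes that was lower in the first of these libraries. Much of its ratio comes from deficient replicate 1, at 1.49 FPKM and approximately 8 fragments. Deficient replicate 3 read 2.91 FPKM, against 2.94 and 3.50 FPKM in replicates 2 and 4. The Hmgn3 ratio likewise leans on replicate 1, at 2.63 FPKM and approximately 11 fragments, against 1.25 FPKM in replicate 3.

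Other members of the GATA family were not called. Over all tested genes 2.63% were called in either direction, so 0 calls in so short a list are near that share. Of 7 tested genes in the list of GATA factors and their named cofactors, 0 were called higher and 1 lower, namely Gata1, and the other 6 had fold changes from -0.32 to 0.40 with a median of 0.14, against -0.01 over all tested genes. Gata3, the GATA factor of T cells, measured 39.9 ± 5.04 FPKM (SD, n = 2) in deficient and 50.3 ± 8.49 FPKM (SD, n = 3) in sufficient libraries (log2 fold change -0.32, limma adjusted p = 0.353). Gata1 stood at 6.97% of the Gata3 level in deficient and 18.7% in sufficient cells. Gata2 was below the filter, with at most 0.555 FPKM in any library, and Gata5 and Gata6 were listed at 0 in all 8. Zfpm1, which encodes the GATA cofactor FOG1, measured 26.2 ± 3.50 and 21.5 ± 2.74 FPKM (adjusted p = 0.373).

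Of 14 tested genes of the complexes that GATA1 forms, 0 were called in either direction, against 2.63% of all tested genes. An unadjusted p under 0.05 (limma) was reached by 5. Lyl1, a helix-loop-helix partner of LMO2, came nearest, at 6.49 ± 0.0727 FPKM (SD, n = 2) against 2.71 ± 1.23 FPKM (SD, n = 3), with an adjusted p of 0.0920 (limma). Runx1 measured 13.9 ± 0.213 against 19.5 ± 3.25 FPKM (adjusted p = 0.193). The coactivator Ep300 (adjusted p = 0.152) and the chromatin remodelling subunit Bptf (adjusted p = 0.185) had positive fold changes of 0.46 and 0.40. The erythroid partners Tal1, Klf1 and Gfi1b were below the filter.

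Markers of the blood lineages that depend on Gata1 were set beside it, because those cells are known to express it. Whether such cells contributed to the Gata1 values was not tested. Gata1 measured 10.3 and 9.05 FPKM in sufficient replicates 1 and 3, which were averaged. There the 5 globin genes of the table summed to 0 and 0.566 FPKM. The same sum was 132 and 27.3 FPKM in sufficient replicates 2 and 4, and 16.8, 200.0, 29.2 and 272 FPKM in deficient replicates 1 to 4. Of 5 tested erythroid markers 0 were called (smallest adjusted p = 0.235, limma, 1 with an unadjusted p under 0.05), with a median log2 fold change of 1.68. That median moved to 3.24 when deficient replicates 1 and 3 were left out, to 0.39 when replicates 2 and 4 of that group were, and to 0.87 when sufficient replicates 1 and 3 were.

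Of the mast cell, basophil and eosinophil markers, 4 of 16 in the table were tested and 12 were below the filter. In the deficient libraries 2 were called higher, Kit and Ccr3, against 1.93% of all tested genes. The list was mixed, since 2 of the 4 tested had negative log2 fold changes, the lowest at -1.32. Kit, the stem cell factor receptor, measured 5.97 ± 0.0688 against 2.18 ± 0.584 FPKM (limma adjusted p = 0.0347), and Ccr3, the eotaxin receptor, 6.12 ± 1.76 against 1.02 ± 0.739 FPKM (adjusted p = 0.0435). Neither passed without sufficient replicate 2 (adjusted p of 0.075 for Kit and 0.085 for Ccr3) or without sufficient replicate 4 (0.056 and 0.052), and Kit did not without sufficient replicate 3 (0.064). The defining markers Mcpt8, Ms4a2 and Fcer1a were at most 1.24 FPKM in any library and listed at 0 in sufficient replicates 1 and 3, while Prg2, an eosinophil granule protein, measured 12.1, 24.7, 10.6 and 1.07 FPKM in sufficient and 0.942, 7.04, 0.123 and 6.74 FPKM in deficient replicates 1 to 4. In sufficient replicate 4, which had the lowest Prg2 of its group, Gata1 measured 10.3 FPKM. Deficient replicates 1 and 3 had less of both genes than sufficient replicates 1 and 3. Whether eosinophils contributed to the Gata1 values was not tested. The sum over the list was 13.9 to 22.3 FPKM in deficient and 8.30 to 36.0 FPKM in sufficient libraries. Of the megakaryocyte and platelet markers, 4 of 14 were tested and 1 was called higher, the integrin chain Itgb3, at 56.9 ± 2.98 against 22.5 ± 3.36 FPKM (adjusted p = 0.00959). Pf4, Ppbp and Gp9 were each under 1 FPKM in every library.

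**Figure D3:**
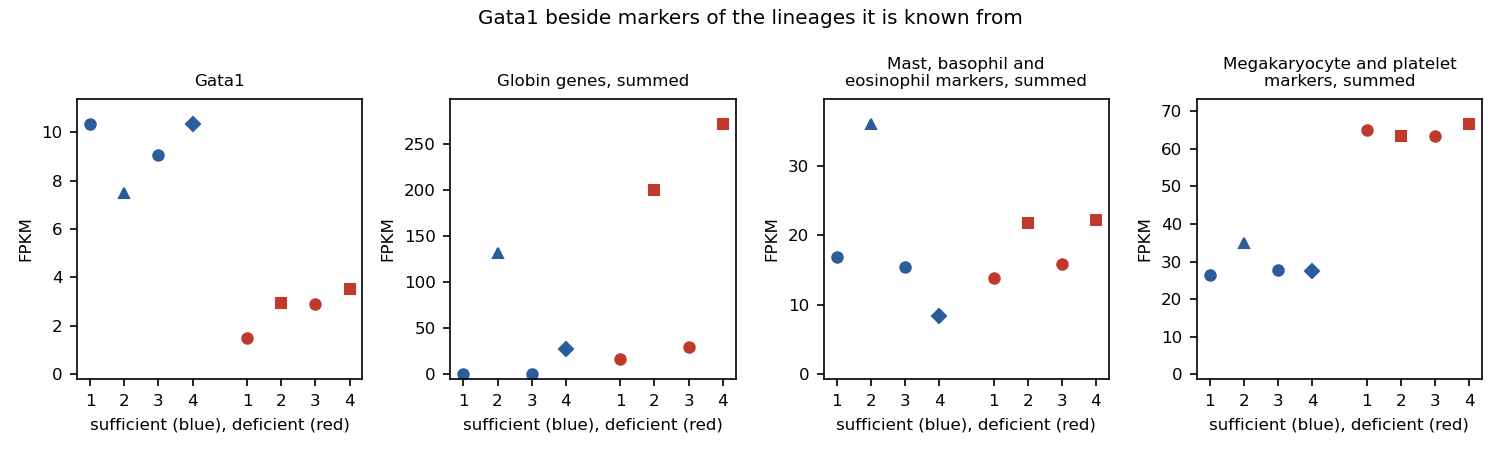
FPKM of Gata1 and the summed FPKM of globin genes, of mast cell, basophil and eosinophil markers and of megakaryocyte and platelet markers, in each of the 4 sufficient (blue) and 4 deficient (red) libraries. In sufficient replicates 3 and 1 Gata1 is at 9.05 and 10.3 FPKM and the globin sums are 0.566 and 0. In deficient libraries Gata1 is at most 3.50 FPKM and the globin sums run from 16.8 to 272. What part these lineages have in the Gata1 values was not tested.

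In the network of MYC, MAX and the MXD repressors, 23 of 27 genes in the table were tested. Of these 1 was called lower, Bmyc, and 1 higher, Usp28, a deubiquitinase that stabilises MYC protein. Over all tested genes the shares were 0.697% and 1.93%, and Bmyc was chosen for its decrease. Usp28 measured 20.6 ± 0.958 against 12.8 ± 1.18 FPKM (a log2 fold change of 0.65 with SE 0.12, limma adjusted p = 0.0418), with no overlap, but did not pass without deficient replicate 3 (0.055) or 4 (0.059) or without sufficient replicate 2 (0.067), 3 (0.053) or 4 (0.086). The 21 tested genes other than Bmyc and Myc had a median log2 fold change of 0.02, and 10 were negative. Mxi1, a MAX-binding repressor, measured 5.48 ± 0.289 against 7.53 ± 0.131 FPKM (adjusted p = 0.152), and Mga 16.0 ± 0.806 against 12.7 ± 1.58 FPKM (adjusted p = 0.276). Mycn and Mycl, the other MYC genes, were below the filter, so Myc and Bmyc were the expressed members of the family. Mycbp2, which encodes a large ubiquitin ligase, measured 61.3 ± 1.59 against 48.7 ± 7.36 FPKM (adjusted p = 0.264).

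Of 50 tested genes of nucleolar function and biosynthesis that MYC is known to induce, 0 were called (limma, adjusted p under 0.05). Over all tested genes 2.63% were called. An unadjusted p under 0.05 (limma) was reached by 18 of the 50. Fold changes over the 50 genes ran from -0.87 to 0.30 with a median of -0.21. Of the 50, 41 were negative, against 52.1% of all tested genes. With equal totals, 25 of 50 were negative with a median of 0.00, against 21.7% of all genes and their median of 0.18. Odc1, the rate-limiting enzyme of polyamine synthesis, had the most negative value, at 38.4, 37.0, 44.0 and 39.1 FPKM in deficient and 77.7, 100.1, 78.6 and 49.7 FPKM in sufficient replicates 1 to 4 (adjusted p = 0.154). Apex1, a DNA repair endonuclease, had the smallest adjusted p (0.0683), at 20.6 ± 1.45 against 29.5 ± 1.90 FPKM. The nucleolar proteins Ncl (86.3 ± 6.89 against 111 ± 3.94 FPKM, adjusted p = 0.138) and Nop56 (70.9 ± 0.216 against 93.0 ± 8.59 FPKM, adjusted p = 0.143) came next with Rcl1 (15.8 ± 0.0243 against 20.8 ± 1.15 FPKM, adjusted p = 0.129).

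Among the 7 tested TALE homeobox genes, Tgif1 was the 1 called lower and 0 were called higher. Over all tested genes 0.697% were called lower and 1.93% higher, and Tgif1 was chosen for its decrease. Its paralog Tgif2 measured 10.3, 5.30, 10.1 and 7.63 FPKM in deficient and 12.0, 16.5, 11.8 and 14.5 FPKM in sufficient replicates 1 to 4, with no overlap, a log2 fold change of -0.73 (SE 0.21) and a limma adjusted p of 0.137. Tgif1 stood at 325% ± 16.7 (SD, n = 2) of the Tgif2 level in deficient and 543% ± 108 (SD, n = 3) in sufficient cells. By replicate 1 to 4 the share was 307%, 426%, 320% and 275% in deficient and 536%, 646%, 569% and 432% in sufficient cells. The deficient SD leaves out the difference between replicates 2 and 4, which were averaged. The 6 tested TALE genes other than Tgif1 had a median of -0.21, with Pbx4 at -0.47 (adjusted p = 0.252), Pbx2 at -0.22 (0.328) and Pbx3 at 0.32 (0.463), all from the same fit with limma.

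Of the SMAD proteins, TGF-beta receptors, corepressors and retinoid receptors with which TGIF1 works, 1 of 24 tested genes was called higher and 0 lower. Over all tested genes 1.93% were called higher and 0.697% lower, so 1 call in a list of this length is near that share. The called gene was Tgfbr3, which encodes the TGF-beta co-receptor betaglycan, at 7.04 ± 1.19 against 3.34 ± 0.337 FPKM (a log2 fold change of 0.88 with SE 0.16, limma adjusted p = 0.0395), which did not pass without sufficient replicate 2 (0.080), 3 (0.056) or 4 (0.086). Skil and Smad7, feedback inhibitors of TGF-beta signalling, had negative fold changes of -0.64 and -0.62, at 28.7 ± 1.08 against 46.2 ± 11.3 FPKM (adjusted p = 0.139) and 29.02 ± 7.44 against 44.9 ± 7.25 FPKM (adjusted p = 0.154). The signalling SMADs Smad3 (34.4 ± 0.334 against 24.8 ± 2.81 FPKM, adjusted p = 0.110) and Smad5 (11.5 ± 0.348 against 8.42 ± 0.420 FPKM, adjusted p = 0.129) had positive values. The median over the 24 genes was -0.03.

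In the HMGN family all 4 genes of the table were tested. Hmgn3, chosen for its decrease, was the 1 called lower, against 0.697% of all tested genes. Hmgn2, the most abundant, measured 83.0 ± 2.60 against 99.4 ± 11.3 FPKM (log2 fold change -0.25, limma adjusted p = 0.348) and Hmgn5 18.1 ± 2.29 against 19.8 ± 2.43 FPKM (-0.12, adjusted p = 0.686), so Hmgn3 made up a small part of the HMGN transcripts in either group. Summed over the family, levels were 142 to 156 FPKM in deficient and 169 to 196 FPKM in sufficient libraries. Of 11 tested HMGA, HMGB, HMG20 and linker histone genes 0 were called, against 2.63% of all tested genes. The list had a median of -0.03, and 1 gene had an unadjusted p under 0.05 (limma). Hmga1 came nearest, at 28.3 ± 0.541 against 36.7 ± 2.51 FPKM (adjusted p = 0.139), and Hmgb1 and Hmgb2 had fold changes of 0.14 and 0.20.

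**Figure D4:**
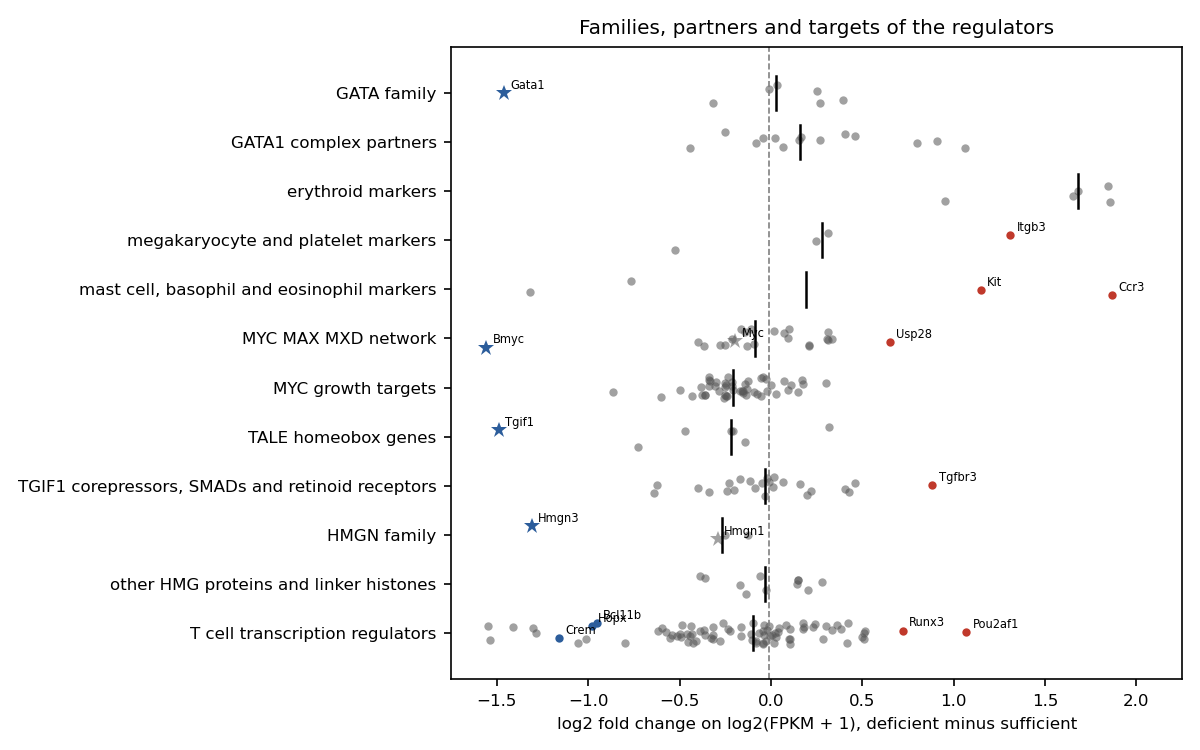
Log2 fold change (x axis, deficient minus sufficient) of each tested gene (points) in 12 lists, with the list median (black bar) and the median of all tested genes (dashed line, -0.01); blue and red points passed the limma threshold as lower and higher, grey ones did not, and stars mark the 6 genes. Gata1, Bmyc, Tgif1 and Hmgn3, which were chosen for large decreases, stand at -1.46, -1.56, -1.49 and -1.31, below the rest of their families.

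The 4 chosen genes were set beside 84 other tested transcription regulators of T cells, of which 3 were called lower and 2 higher. Over all tested genes 0.697% were called lower and 1.93% higher, and 1 of the 3 is Bcl11b, the floxed gene. The decreases of the chosen genes were large but not the only ones of that size. Nr4a2 (log2 fold change -1.55, limma adjusted p = 0.217), Nfil3 (-1.54, 0.0791) and Bhlhe40 (-1.41, 0.251), named after their values were seen, had more negative fold changes than Hmgn3 and did not pass. Their sufficient libraries were spread, as for Bhlhe40 at 62.8, 203, 60.5 and 50.1 FPKM in replicates 1 to 4. The called genes were Crem, an activator or repressor of cyclic AMP responses (-1.16, adjusted p = 0.0319), Hopx, a homeodomain protein that binds no DNA (-0.98, adjusted p = 0.00982), and Bcl11b itself (-0.95, adjusted p = 0.0238). Hopx measured 46.6 ± 3.11 against 92.8 ± 4.58 FPKM. The 2 called higher were Runx3, a Runt factor of cytotoxic T cells, at 31.3 ± 0.403 against 18.7 ± 2.06 FPKM (adjusted p = 0.0341), and Pou2af1, an octamer coactivator of B cells, at 6.40 ± 1.17 against 2.52 ± 0.461 FPKM (adjusted p = 0.0354). Without sufficient replicate 2, Hopx passed while Crem (adjusted p = 0.059), Bcl11b (0.060), Runx3 (0.059) and Pou2af1 (0.079) did not, and without sufficient replicate 4 neither Runx3 (0.072) nor Pou2af1 (0.076) did. Over all tested genes Bmyc had the 26th, Tgif1 the 31st, Gata1 the 34th and Hmgn3 the 42nd most negative fold change.

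The tested genes nearest in profile were found for each gene by the smallest root mean square difference of centred log2(FPKM + 1) values over the 5 averaged libraries, which share the group difference by construction. For Gata1 they were Sdcbp2 (0.195), the pseudogene Ceacam-ps1 (0.218) and Folr4 (0.243), which encodes the JUNO folate receptor relative of Treg cells. For Bmyc they were the MAP kinase phosphatase gene Dusp5 (0.245), the syntaxin gene Stx1a (0.274) and Erdr1 (0.278), and Erdr1 shared the split of the deficient pairs, at 38.2, 14.5, 38.2 and 11.9 FPKM in deficient replicates 1 to 4. For Tgif1 they were Dusp10 (0.180), Fosl2 (0.185) and Hey1 (0.197), each of which was highest in sufficient replicate 2, as Tgif1 was. For Hmgn3 they were Stx1a (0.124), Sh3gl3 (0.125) and Lrig1 (0.136), and Stx1a and Lrig1 varied little within groups, the latter at 25.1 ± 2.02 against 57.1 ± 1.89 FPKM. Myc lay nearest to Lrrc75a (0.0251), Zfp566 (0.0315) and Gng12 (0.0416), and Hmgn1 to Atxn10 (0.0171), Pigx (0.0193) and Actr10 (0.0213).

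The fold changes kept their direction for Gata1, Bmyc, Tgif1, Hmgn3 and Hmgn1 under each alternative that could be run, which was 19 for Hmgn3 and 20 for the others. They ran from -1.73 to -1.26 for Gata1, from -1.99 to -1.13 for Bmyc, from -1.76 to -1.22 for Tgif1 and from -1.74 to -1.08 for Hmgn3. Myc ran from -0.34 to 0.014, positive only with equal totals, and Hmgn1 from -0.36 to -0.08. The 4 decreased genes were chosen by this comparison and the alternatives reuse the same libraries, so their kept direction is no test.

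**Figure D5:**
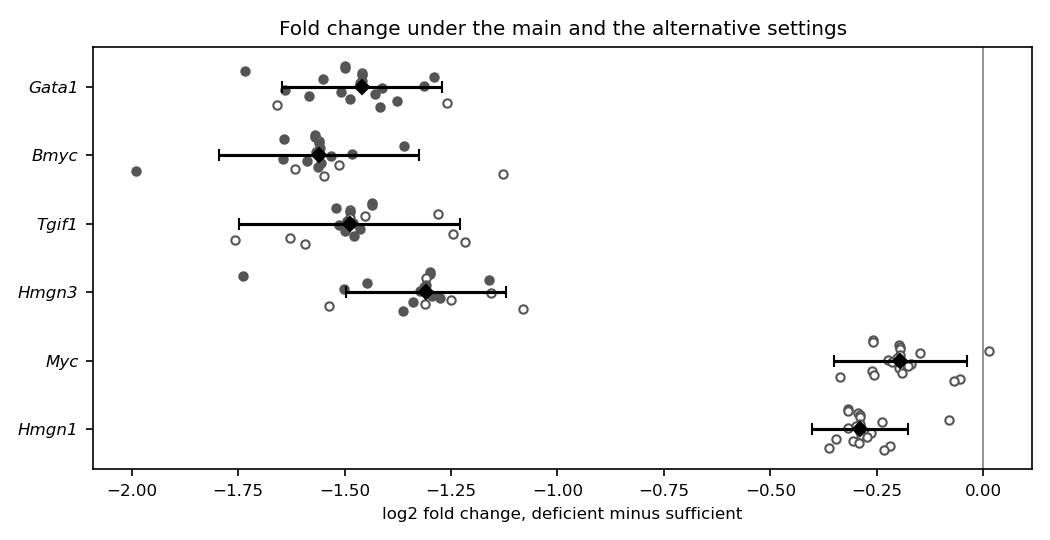
Log2 fold change, deficient minus sufficient, of each gene as reported (black diamonds, bars for SE) and under 20 alternatives (circles, filled where the limma adjusted p was under 0.05; 19 for Hmgn3). The 4 decreased genes stay between -1.99 and -1.08 and the paralogs between -0.36 and 0.014.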

How the data were processed

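RNA of sorted CD4+YFP+ cells was sequenced from stranded total RNA libraries, per the labels' protocols. The table deposited by the authors holds FPKM of 23997 genes, as its name and its values show. Per the submitters' processing notes, STAR 2.5.1 and Cuffnorm 2.2.1 were among the tools and mm10 was the build, while the sources used here do not give settings, order or annotation. Of 16 value columns, 8 matched samples by name and 8 did not and were not used, though a first look covered all. Depth was estimated from the steps of low FPKM in single-transcript genes (GENCODE M21 lengths less 150 bases) and is approximate, so counting intervals are left out. Columns of a group whose spread was under 1.5 times sampling noise at 150 to 500 reads were averaged.

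The test was limma 3.58.1 (R 4.3.3) on log2(FPKM + 1), over genes whose mean reached 1 FPKM (mean-variance trend, groups as the only term, two-sided, Benjamini-Hochberg over 10614 genes), after the fit was tested on simulated data. The 6 genes and all lists were chosen with earlier results of these data known. Named are the 6 genes, Bcl11b, up to 4 genes per list with the lowest adjusted p, every called list gene and the 3 nearest profiles per gene; others were named after their values were seen. Alternatives covered pseudocount, filter, scaling, robust fitting, separate columns, a replicate block and left-out libraries; median-ratio scaling was added after seeing the data.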

Additional observations from a re-analysis of the deposited data

How the results depend on the processing

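Against 279 genes called in either direction, separate testing of all 8 columns gave 1851, a pseudocount of 0.1 gave 182, no filter 99 and a mean of at least 5 FPKM 113. Dropping both columns of a near-identical pair left 16 calls for deficient replicates 1 and 3 dropped, 8 for 2 and 4 dropped, and 167 for sufficient replicates 1 and 3 dropped; the lone deficient library is then assumed to vary like the other group. Leaving out 1 column at a time gave 80 (without sufficient replicate 2) to 297. With equal totals 91.9% of calls were higher, against 73.5% as reported. The replicate block, fitted on all 8 columns, gave 1418 calls. Same-numbered columns of the 2 groups correlated at 0.03 to 0.13 and differently numbered ones at -0.11 to 0.13. The labels do not say that a number marks a shared animal, litter or day, so the main fit had no block. These correlations do not exclude a shared origin.

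With no filter, more genes were tested and the log2 fold changes of Gata1 (-1.46), Bmyc (-1.56), Tgif1 (-1.49) and Hmgn3 (-1.31) no longer passed. Without deficient replicates 1 and 3, Gata1 (-1.26), Tgif1 (-1.76) and Hmgn3 (-1.54) did not pass, and without deficient replicates 2 and 4 Gata1 (-1.66), Bmyc (-1.13), Tgif1 (-1.22) and Hmgn3 (-1.08) did not. Without sufficient replicates 1 and 3, Bmyc (-1.55) and Tgif1 (-1.59) did not pass. Tgif1 also missed with equal totals (-1.28), quantile normalization (-1.45) and robust fitting (-1.49). With 1 column left out the range was -1.64 to -1.48 for Bmyc, -1.63 to -1.25 for Tgif1 and -1.50 to -1.16 for Hmgn3; without sufficient replicate 2 or 4 these 3 did not pass, nor did Hmgn3 without deficient replicate 3. Myc turned to 0.014 with equal totals, and Hmgn1 passed with all 8 columns tested separately (-0.32). Hmgn3 had no value at a mean of at least 5 FPKM. Apart from fewer samples or more genes tested, the causes were not tested. Values of Gata1 and Hmgn3 rest on as few as 8 and 6 fragments in a library.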

Other observations

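Genes within 500 kb of the 6 genes, chosen for a look after the values were seen, were not called lower. Over all tested genes 0.697% were called lower and 1.93% higher, so 0 lower calls among these neighbours are near the lower share. Around Gata1, 25 neighbours were tested, 2 were called higher and 0 lower by limma, with a median log2 fold change of 0.04. The 2 were Pim2, a serine/threonine kinase gene 75.8 kb away (0.97, adjusted p = 0.0113), and Ppp1r3f (0.96, adjusted p = 0.0241). Foxp3, the locus that carries the Cre, lies 364 kb from Gata1. Around Bmyc, 25 neighbours were tested with 2 called higher, Tmem141 and Fcna, 0 lower and a median of 0.03. Tgif1, Hmgn1, Hmgn3 and Myc had 4, 4, 3 and 1 tested neighbours, and 0 were called in either direction. Sh3bgrl2, 401.6 kb from Hmgn3, had a log2 fold change of -0.75 and a limma adjusted p of 0.0522, with no overlap of the groups.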
